A study of Mus musculus with 2 samples.

Results

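Sonic hedgehog, the secreted protein made from Shh, is a signal of the growing hair follicle, and 9 genes of its pathway were followed here: Shh, Ptch1, Smo, Gli1, Gli2, Gli3, Hhip, Sufu and Boc. They were taken as a fixed list of names from a mouse array that holds 41165 probes, and the list was chosen with earlier results of these data known. Every array spot whose gene name equalled a member was used, which gave 19 probes printed as 55 spots, and the processed signal of each was compared between FGF18-injected and PBS-injected skin. All 9 genes had at least 1 probe well above background on both arrays, out of 16694 genes of which this was true.

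Full-thickness skin came from the back of C3H/HeN mice, all males aged 61 days. In both groups the back hair had been pulled out 5 days before sampling, which sets off anagen, when follicles grow. On day 4 one group received 1 µg of FGF18, a secreted fibroblast growth factor, under the skin and the other received phosphate-buffered saline (PBS), and skin was taken after 24 h; neither group carried a transgene or a deletion according to the labels. The labels name 3 mice, and it is not clear whether these were 3 in each group. One entry describes a pool of RNA for each group and another describes separate extraction of the mice; each group was hybridised to 1 single-colour Agilent array. The PBS sample is titled telogen (rest) but its other entries place it in anagen, and it is called the PBS array here.

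Because each group is 1 array, no test of the treatment was possible and no p-value is given. The only error that the arrays themselves hold is technical: the spread over spots of 1 probe, and the error that the scanner software assigns to a spot. Of the 43379 probe spots on each array, 62.4% (FGF18) and 61.5% (PBS) were well above background, 0 were saturated, and the 153 negative control spots had a median signal of 5.74 and 6.03. The keratin genes Krt5 and Krt14 of basal epidermis and Krt35 and Krt85 of the hair matrix were well above background on both arrays. In full-thickness skin, fewer cells of a type and less RNA per cell cannot be told apart.

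In the hair follicle, Shh is made by the epithelium at the growing tip of the follicle and acts on neighbouring epithelial cells and on the dermal papilla. PTCH1, its receptor, holds the membrane protein SMO inactive until the ligand binds. Active SMO then turns the GLI transcription factors from repressors into activators, with SUFU holding them back in the cytoplasm. Gli1, Ptch1 and Hhip are themselves switched on by GLI proteins, so that their transcripts are widely used as readouts of the pathway, and PTCH1 and HHIP feed back on the signal by binding the ligand. BOC is a co-receptor that helps the ligand bind.

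No sequence of the array probes is given here. The RefSeq promoter table for GRCm38.p6 held 6 of the 9 genes, namely Ptch1, Smo, Gli2, Gli3, Hhip and Sufu, and the 250 bases before the start were searched on both strands for the GLI consensus GACCACCCA and for its shorter core ACCACCC, which lies within it. The consensus was in 0 of the 6 windows and in 0.225% of all 32851 promoter windows. The core was in 1 of the 6, that of Gli2, 205 bases before the start and on the minus strand relative to the gene, and in 3.92% of all windows. The windows of Ptch1 and Hhip are shown because both genes are feedback targets of GLI, and that of Gli2 because it alone holds the core, which is in capitals. All are written 5′ to 3′ in the direction of the gene. In each of these 3 genes the window's start site lies inside the annotated span of the gene; the windows of Ptch1 and Gli2 lie wholly inside it and that of Hhip in part. A match is a description of letters and was not tied to any value below.
Ptch1 promoter, chr13:63565736-63565985, minus strand: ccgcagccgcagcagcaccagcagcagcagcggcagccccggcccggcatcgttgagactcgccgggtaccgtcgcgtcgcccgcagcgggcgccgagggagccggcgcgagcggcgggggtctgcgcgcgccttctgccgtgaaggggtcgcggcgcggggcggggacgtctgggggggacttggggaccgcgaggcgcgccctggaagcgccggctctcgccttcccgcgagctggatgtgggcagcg
Hhip promoter, chr8:80058009-80058258, minus strand: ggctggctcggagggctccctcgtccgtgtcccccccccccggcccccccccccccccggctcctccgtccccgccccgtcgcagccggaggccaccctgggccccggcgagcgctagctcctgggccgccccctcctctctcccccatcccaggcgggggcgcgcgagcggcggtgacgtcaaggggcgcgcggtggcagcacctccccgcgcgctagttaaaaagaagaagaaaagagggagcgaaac
Gli2 promoter, chr1:119053620-119053869, minus strand: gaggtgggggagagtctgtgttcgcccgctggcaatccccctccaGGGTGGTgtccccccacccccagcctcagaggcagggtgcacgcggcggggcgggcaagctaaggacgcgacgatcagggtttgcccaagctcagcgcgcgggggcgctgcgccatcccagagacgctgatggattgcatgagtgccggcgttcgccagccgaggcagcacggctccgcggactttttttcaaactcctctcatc

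The 9 genes differed little between the arrays, and no gene reached 2-fold in either direction. The scaled log2 ratio, FGF18 over PBS, was taken after each array had been divided by the 75th percentile of its signals (1020 for FGF18 and 897 for PBS), which subtracts 0.19 from the unscaled value. On this scale the 9 genes lay between -0.30 for Boc and 0.35 for Sufu, with a median of -0.08, and all 16694 genes had a median of -0.07. The middle 50% of all genes ran from -0.23 to 0.09, and 3 of the 9 lay within it, so small differences were not particular to the members. Of the 9 genes 0 were past 2-fold, where 2.52% of all genes were (1.52% higher and 0.994% lower), and 0 were past 1.5-fold, where 8.71% of all genes were. Over single probes, 14 of the 19 were well above background on both arrays; 0 of the 14 were past 2-fold against 2.54% of all 24339 such probes (1.47% higher and 1.07% lower). At 1.5-fold 1 of the 14, a probe of Sufu, was higher and 0 were lower, against 9.43% of all probes (3.99% higher and 5.44% lower). With counts this small against these shares, nothing can be read from the members' counts. The other 5 probes were well above background on neither array, so that no probe was measured on 1 array alone.

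**Figure D1:**
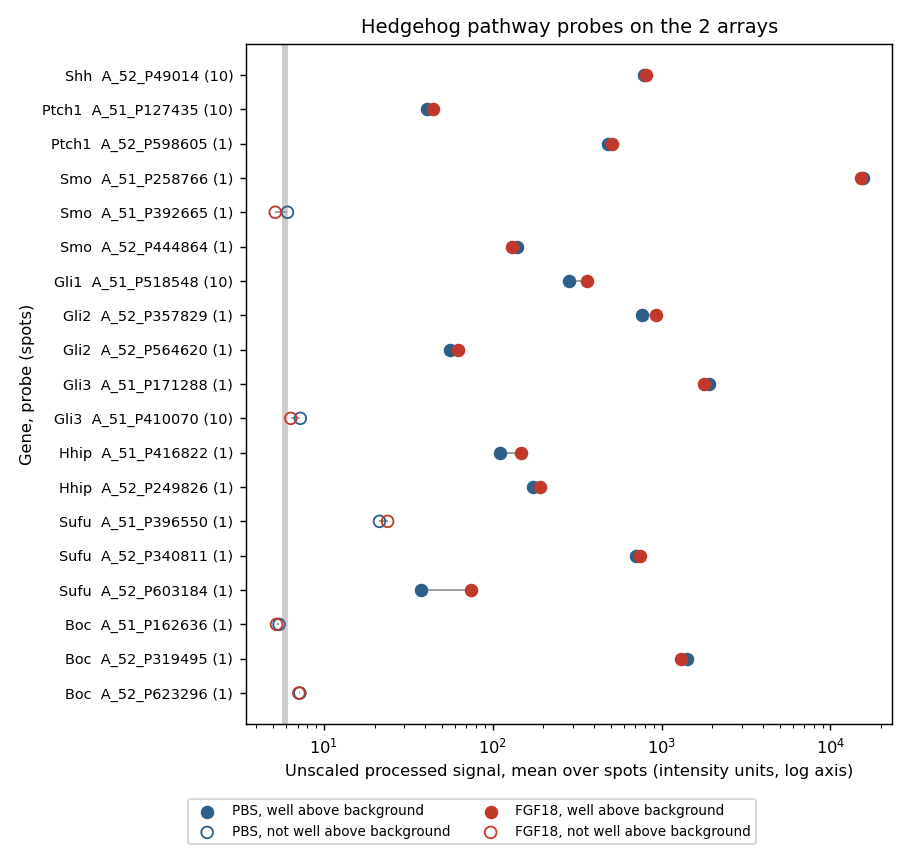
Unscaled processed signal (x axis, intensity units, log scale) of each of the 19 probes (y axis, with the number of spots), in blue for PBS and red for FGF18; filled points were well above background, open points were not, and the grey band spans the median of the negative controls on the 2 arrays. In 14 probes the points of both arrays are filled and lie close together, with the widest gap at the Sufu probe of 37.6 and 74.0, and 5 probes of Smo, Gli3, Sufu and Boc lie near the band or just above it.

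Shh, the ligand, was measured by 1 probe, A_52_P49014, printed as 10 spots. Its processed signal on the FGF18 array had a lowest spot of 759, a median of 809 and a highest of 858, and on the PBS array a lowest of 747, a median of 786 and a highest of 814. The spots of the arrays therefore overlapped, although 9 of the 10 positions were higher on the FGF18 array before scaling. The mean was 806 ± 33.2 (SD, 10 spots) for FGF18 and 783 ± 24.6 for PBS. After scaling, the log2 ratio was -0.14 ± 0.03 (SD, 10 spots), with 0 of 10 positions above 0. The scanner software's error of the log2 ratio at a single spot was larger, between 0.204 and 0.205. Relative to the median of all genes, Shh stood 0.07 lower, at percentile 37.9 of all genes.

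Gli1, a GLI activator and the usual readout of pathway activity, was also printed as 10 spots of 1 probe, A_51_P518548. The signal ran from 316 through a median of 367 to 394 on the FGF18 array, and from 259 through 280 to 312 on the PBS array. Before scaling, every spot of the FGF18 array was above every spot of the PBS array. The means were 364 ± 22.9 and 282 ± 16.3 (SD, 10 spots each). After scaling, the log2 ratio was 0.18 ± 0.08 (SD, 10 spots), a fold of 1.14, and 10 of 10 positions stayed above 0, with values from 0.05 to 0.33. This exceeded the spread between spots, which holds no difference between mice, RNA extractions or hybridisations. It did not exceed the scanner software's error of the log2 ratio at a single spot, which was between 0.206 and 0.210. The gene was at percentile 83.9 of all genes, and its probe was at percentile 79.7 of the 2434 probes of like signal.

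Ptch1, the receptor and feedback target, was measured by 2 probes that gave nearly the same ratio. The probe printed as 10 spots, A_51_P127435, was dim, running from 37.0 through a median of 42.6 to 65.0 on the FGF18 array and, over the 8 spots kept, from 34 through 39.4 to 56.5 on the PBS array, so the arrays overlapped. Its scaled log2 ratio was -0.06 ± 0.16 (SD, 8 spots), which is smaller than that spread. The other probe, A_52_P598605, had signals of 507 ± 51.1 for FGF18 and 481 ± 48.5 for PBS (the scanner software's error of a single spot) and a ratio of -0.11. As the mean of both probes Ptch1 was at -0.08, or 0.01 below the median of all genes.

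**Figure D2:**
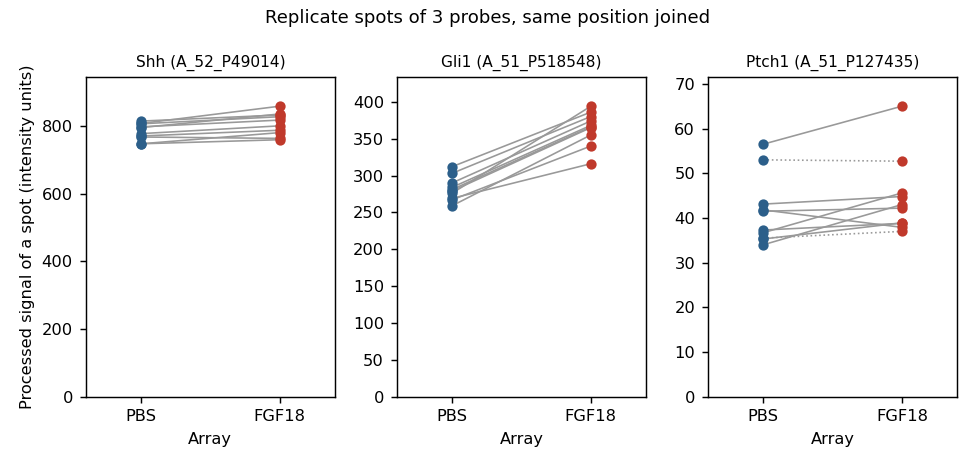
Unscaled processed signal of single spots (y axis, intensity units, from 0) on the PBS and FGF18 arrays (x axis) for the probes of Shh, Gli1 and Ptch1 with 10 spots each; lines join the same position, dotted where a spot was marked as an outlier on an array. The Gli1 spots of the FGF18 array, from 316 to 394, all lie above those of the PBS array, from 259 to 312, whereas the Shh and Ptch1 spots overlap.

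Hhip, which encodes a membrane protein that binds and sequesters the ligand, was measured by 2 probes of 1 spot each. Probe A_51_P416822, designed on a cDNA clone that the array describes as unclassifiable, had signals of 148 ± 16.3 for FGF18 and 110 ± 13.2 for PBS and a scaled log2 ratio of 0.24 ± 0.23 (scanner error). Probe A_52_P249826, designed on the gene's reference transcript, had 192 ± 19.9 and 173 ± 18.2 and a ratio of -0.04 ± 0.21. Neither ratio exceeded its error by a clear margin, and the probes fell on opposite sides of 0. The gene's mean was 0.10.

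The 3 readout genes can be set against the ligand's own transcript without any scaling, because a constant between the arrays cancels. In these terms the log2 ratio of Gli1 was 0.33 higher than that of Shh, that of Hhip 0.25 higher and that of Ptch1 0.06 higher. For Gli1 and Shh the scaled ratios of single spots did not overlap, the highest Shh position being at -0.10 and the lowest Gli1 position at 0.05. For Ptch1 the difference was within its spread over spots, and for Hhip it came mainly from 1 of its 2 probes. Whether this order would be seen in other mice was not tested.

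Among the receptors and transducers, Smo, the membrane protein that passes the signal inward, had 3 probes of 1 spot each. The bright probe A_51_P258766 had 15200 ± 1520 for FGF18 and 15600 ± 1560 for PBS, and probe A_52_P444864 had 131 ± 14.8 and 139 ± 15.6. The scaled log2 ratios of these 2 probes, -0.22 and -0.27, were close to each other. The third probe, designed on a clone from newborn eyeball, was not well above background at signals of 5.17 and 6.10. The gene's mean was -0.25, and Smo was among the 3 genes, with Gli3 and Boc, that stood lowest.

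Boc, the co-receptor, rested on 1 of 3 probes. A_52_P319495 had 1300 ± 130 for FGF18 and 1410 ± 142 for PBS, and its scaled log2 ratio of -0.30 ± 0.20 (scanner error) was the lowest of the 14 probes. The other 2, with signals between 5.26 and 7.23, were not well above background on either array. Among the 2434 probes of like signal this ratio was at percentile 11.6.

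Gli2, the main activator of the pathway in skin, had 2 probes, at 930 ± 93.1 against 762 ± 76.4 and at 62.2 ± 8.09 against 56.1 ± 7.76 (FGF18 against PBS). Their scaled log2 ratios were 0.10 and -0.04, each smaller than its scanner error of 0.20 and 0.27. Gli3, which acts mostly as a repressor, gave a signal with only 1 of its 2 probes. The probe on the reference transcript, A_51_P410070, was not well above background in any of its 10 spots on either array: its spots kept had medians of 5.68 and 6.33, near the negative controls. The probe on a clone described as unclassifiable, A_51_P171288, had 1780 ± 178 for FGF18 and 1910 ± 191 for PBS and a ratio of -0.29 ± 0.20. The value given for Gli3 thus depends on a probe whose clone the array does not assign to a product.

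Sufu, the inhibitor that binds GLI proteins, had the highest ratio of the 9 genes and the widest disagreement between probes. Probe A_52_P603184 was dim, with 74.0 ± 9.52 for FGF18 and 37.6 ± 7.25 for PBS, and its scaled log2 ratio was 0.79 ± 0.33 (scanner error), a fold of 1.73. It alone among the 14 probes lay outside the middle 95% of the 2434 probes of like signal, which ran from -0.95 to 0.75. Probe A_52_P340811, at 750 ± 75.2 and 703 ± 70.5, had a ratio of -0.09 ± 0.20. The third probe, at 23.9 and 21.4, was not well above background on either array. The mean of 0.35 thus came from 1 dim spot per array, and with the brightest probe of each gene, or with signals over 100, Sufu was at -0.09.

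**Figure D3:**
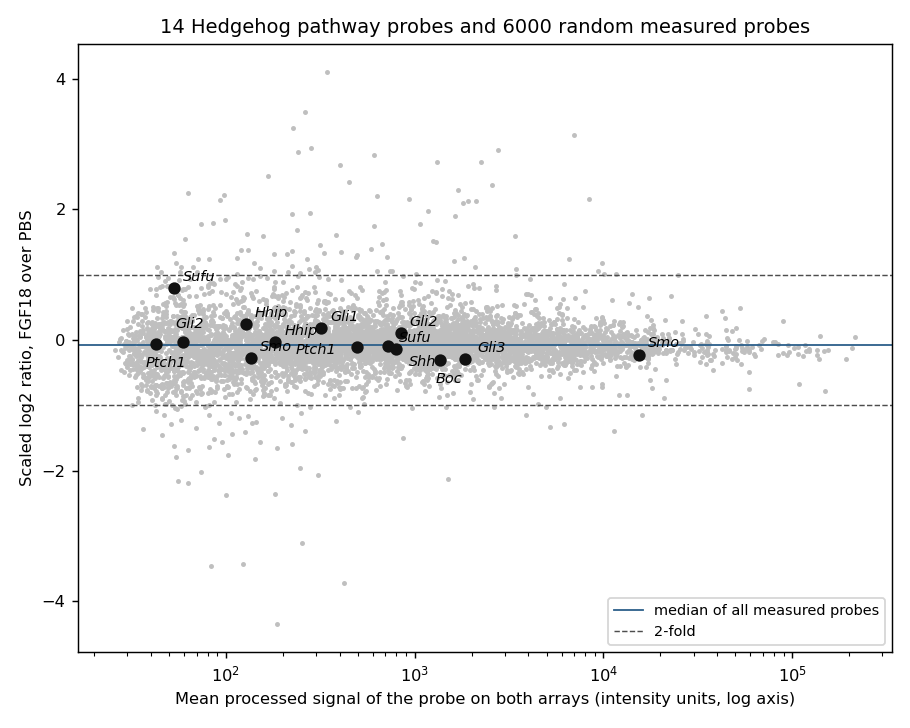
Scaled log2 ratio, FGF18 over PBS (y axis), against the probe's mean processed signal on both arrays (x axis, intensity units, log scale) for the 14 measured probes of the 9 genes (black, labelled) and a random 6000 of the 24339 measured probes (grey); the line is the median of all measured probes and the dashed lines mark 2-fold. The labelled probes lie within the grey cloud, with 1 probe of Sufu at 0.79 nearest to 2-fold.

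Which genes lay above or below 0 depended on the scaling between the arrays, whereas their place relative to other genes depended on it less. Of the 9 genes 4 were above 0 and 5 below as given, 6 and 3 without scaling, and 9 and 0 with scaling to spike-in transcripts. Relative to the median of all genes, Gli1, Gli2 and Hhip lay above it and Smo, Gli3 and Boc below it in 15 of 15 settings. The range was 0.21 to 0.37 for Gli1, 0.03 to 0.22 for Gli2 and 0.04 to 0.29 for Hhip. It was -0.18 to -0.12 for Smo, -0.24 to -0.14 for Gli3 and -0.26 to -0.06 for Boc. Shh was below that median in 14 of 15, Ptch1 in 12 of 15, and Sufu above it in 13 of 15. Several of these settings differ by a constant alone, which cannot move a gene relative to the others, so the counts are no measure of repeatability. Spike-in scaling was the only setting in which members passed 2-fold, Gli1 at 1.00 and Sufu at 1.17, and there 16.3% of all genes passed it.

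**Figure D4:**
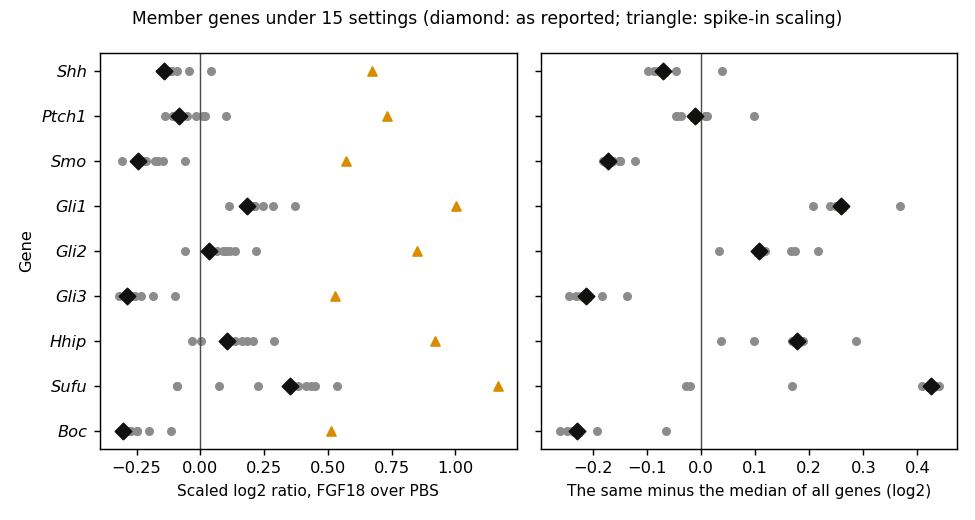
Log2 ratio, FGF18 over PBS (left x axis), and the same minus the median of all genes in that setting (right x axis) for each of the 9 genes (y axis); black diamonds are the values given in the text, orange triangles those with spike-in scaling and grey points the other settings, 15 in all. On the left all genes shift together with the scaling, and on the right Gli1, Gli2 and Hhip stay above 0 and Smo, Gli3 and Boc below it.

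The other parts of the pathway were read from 64 further genes in 5 lists, of which 54 were measured. Of these 0 were at least 2-fold higher or lower, and at 1.5-fold 0 were higher and 4 lower (7.41%), against 3.76% of all genes higher and 4.95% lower. Their median was -0.07, the same as that of all genes. The 4 lower genes were Sfrp1, Scube3, Hhat and Sox9.

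Genes for making and releasing the ligand had a median of -0.21 over 6 measured genes of 8 listed. Scube3, whose family carries Hedgehog proteins away from the cells that make them, was lowest at -0.69, from dim signals of 57.4 for FGF18 and 81.5 for PBS. Hhat, the enzyme that attaches palmitate to the ligand, was at -0.66, with both probes lower at -0.81 and -0.50. Disp1, which releases the lipid-bearing ligand, was highest at 0.02. The list's median was below that of all genes in 13 of 15 settings and above it in 2, by 0.08 with signals over 100, where the median was 0.01, and by 0.07 without a filter on dim probes. Of the other ligand genes, Dhh was measured, at 609 and 531 with a ratio of 0.01, whereas Ihh was not well above background with either probe.

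Relatives of the receptor had a median of -0.14 over 4 measured genes of 6. The co-receptor genes Cdon and Gas1 were at -0.25 and -0.03, the former at dim signals of 38.7 and 40.4. Gpc3, a glypican that binds Hedgehog ligands, was lowest at -0.41. The list's median was below that of all genes in 14 of 15 settings and above it by 0.04 with signals over 100. Intracellular regulators had a median of -0.05 over 16 measured of 18 listed, between Evc, a ciliary partner of SMO, at -0.20 and Gpr161, a ciliary receptor that restrains the pathway, at 0.49. The Gpr161 value came from dim signals of 66.0 and 41.4. Kif7, the kinesin that organises GLI and SUFU at the tip of the cilium, was at 0.03.

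The primary cilium is the compartment in which SMO and the GLI proteins meet, and its genes had a median of -0.01 over 13 measured of 14. Ift88, a carrier of intraflagellar transport, was highest at 0.41 with signals of 777 for FGF18 and 516 for PBS. Arl13b, a small GTPase of the ciliary membrane, was lowest at -0.46 as the mean of 3 probes between -0.67 and -0.07. The list's median lay above that of all genes in 15 of 15 settings, by 0.06 to 0.11.

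Genes described as responding to Hedgehog signals in various tissues had a median of -0.31 over 17 measured of 20, the lowest of the 5 lists under the scaling and probe averaging used here. The median was -0.19 with the brightest probe of each gene, -0.20 with the median over probes and -0.19 with signals over 100. The ligand list was lower with the brightest probe (-0.27) and with the median over probes (-0.21), and the receptor relatives were lower without a filter on dim probes (-0.24 against -0.22). The responsive genes' median lay below the median of all genes in 15 of 15 settings, by 0.04 to 0.25, and its 2 members past 1.5-fold were both lower. Sfrp1, a secreted Wnt antagonist, was lowest at -0.82, a fold of 1.76, with 2 probes at -0.96 and -0.68. Sox9, a transcription factor of follicle stem cells, was at -0.66 with 3 probes between -0.88 and -0.29. These genes answer to many signals, and the list shares Gas1 with the receptor relatives.

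Other members of that list stood on both sides of 0. Foxm1, a transcription factor of mitosis, was highest at 0.27, and Mycn, which drives proliferation downstream of Hedgehog, was at 0.08 with probes at -0.05 and 0.20. Ccnd1, a cyclin gene, was at -0.20. The cell-cycle genes Ccnd2 and Cdk6 were at -0.38 and -0.36, with all 3 probes of Ccnd2 and both measured probes of Cdk6 below 0. Another Cdk6 probe, with signals of 17.5 for FGF18 and 9.25 for PBS, was not well above background on either array. Bcl2, a survival gene, was at -0.45, but its 3 probes disagreed, at -0.99, -0.32 and -0.02, the first at dim signals of 52.8 and 92.4. Foxe1, a forkhead factor of the follicle, was at -0.46, and Runx1 was at -0.0034 with probes at -0.19 and 0.18.

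**Figure D5:**
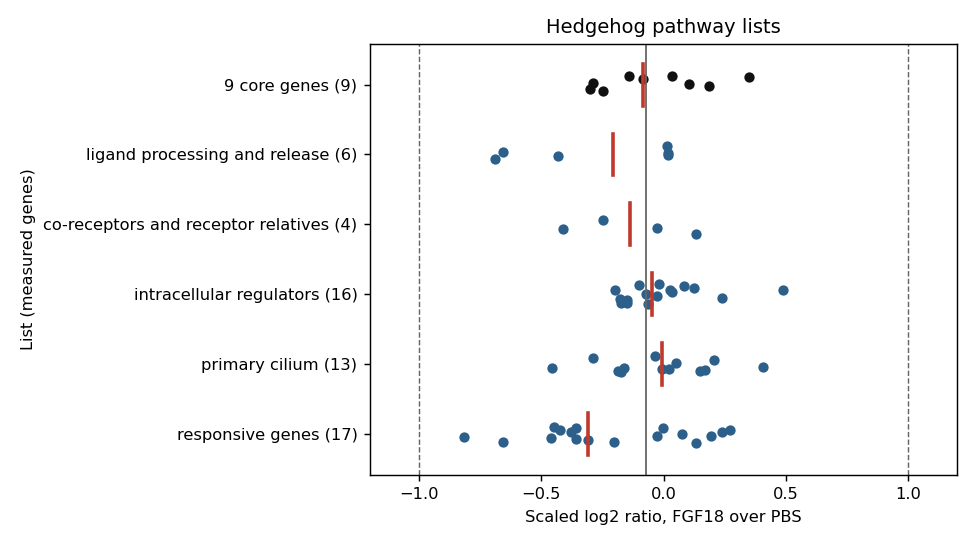
Scaled log2 ratio, FGF18 over PBS (x axis), of each measured gene in the 9 core genes (black) and 5 further lists (blue), with the number measured in brackets; red bars are list medians, the grey line is the median of all genes and dashed lines mark 2-fold. No point reaches 2-fold, and the bar of the responsive genes, at -0.31, lies farthest to the left.

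Markers of the cells that send or receive the signal are given beside these values. Hair matrix markers had 8 of 8 genes measured and a median of -0.16, from Foxn1 at -0.72 to Krt35 at 0.06, with an unscaled summed signal of 94770 for FGF18 and 81955 for PBS. Krt35 alone gave 72400 and 60900 of these sums, and after scaling their log2 ratio was 0.02. Hair germ and bulge markers had a median of -0.23 over 7 genes, from Lgr5 at -0.88 to Cdh3 at 0.57, and Sox9 is in this list too. Dermal papilla and sheath markers, the main cells that respond to Shh in the dermis, had a median of -0.10 over 11 genes, from Lepr at -0.59 to Corin at 0.49, and this list shares Hhip with the members. Unscaled summed signals were 116059 and 115691 for the germ and bulge list and 7606 and 6881 for the papilla list, FGF18 first, and the scaled log2 ratios of the sums were -0.18 and -0.04. The medians of the matrix and papilla lists were above that of all genes in 1 and 2 of the 15 settings and below it in the rest. In none of these lists was a gene past 2-fold.

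Hair shaft keratins stood farther apart between the arrays. Of the 6 listed, 5 were measured under the array's gene names. These 5 were past 2-fold lower after scaling, where 0.994% of all genes were, their median being -1.33 and Krt34 lowest at -2.44. Krt31 was nearest to the threshold, with unscaled signals of 817 and 1490 and a scaled fold of 2.07. The count was 4 with median scaling, without scaling, with loess and with normexp, and 1 with spike-in scaling. With probes named by accession or symbol in the RefSeq table, 6 were measured, Krt86 being the gene that this naming adds. Of these 6, 5 were past 2-fold, and at 1.5-fold 5 were lower and 0 higher. The unscaled summed signal of the 5 measured under the array's names was 5333 for FGF18 and 12362 for PBS. The hair keratins Krt35 and Krt85, placed in the matrix list, were at 0.06 and -0.02. Dermal fibroblast markers had a median of -0.35 over 7 genes, with Col1a2 lowest at -0.75 from 2 probes at -0.99 and -0.52. This median was -0.22 with the brightest probe of each gene and with signals over 100. It lay below that of all genes in 15 of 15 settings, by 0.03 to 0.28. Immune cell markers had a median of 0.22, above that of all genes in 15 of 15 settings by 0.27 to 0.57, and 4 of 6 were above 0. Itgam, of myeloid cells, was highest at 0.98, Ptprc, of all leukocytes, was at 0.69, and Cd207, of Langerhans cells, was lowest at -0.74. Basal epidermis, nerve, sebaceous, muscle and fat markers had medians of -0.06, -0.01, 0.13, 0.24 and 0.20. The part of these compartments in the values of the Hedgehog genes was not tested.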

How the data were processed

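Gene expression was measured on 2 single-colour Agilent arrays, 1 per group. Per the file headers, the scanner software was Agilent Feature Extraction 9.5.3.1 and the array design was 014868. The deposited intensity values used here, per the file headers, are the processed signal, which was corrected by spatial and multiplicative detrending, with surrogate values near background, its error, the spot mean and the local background. Both arrays carry the same scan entry. The authors' series value table holds a ratio: set against the scanner files, it is each processed signal divided by a constant of its array, 83.8 for FGF18 and 80.0 for PBS, in the same direction and on a linear scale, with a largest departure of 0.0072 (log2). Its column medians were 1.00 and 0.999. Each constant equals the median signal over all spots of its array.

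Control spots and outlier-marked spots were left out, and log2 of the processed signal was taken, minus each array's 75th percentile of it. Replicate spots were averaged; a probe counted as measured where at least a share of 0.5 of its spots was well above background on both arrays, and the log2 ratios of a gene's measured probes were averaged. Signals well above background began at 23.3 (FGF18) and 24.2 (PBS). Over probes printed as at least 8 spots, log2 ratios of spots varied with a median SD of 0.11 in the dim group of probes, 0.04 in the middle group and 0.03 in the bright group. Probes of like signal are those in the same of 10 equal bins of mean signal. Gene names are those of the array, with list genes also found through synonyms in a RefSeq table of assembly GRCm38.p6; no build is named in the files, gene coordinates are therefore left out, and promoter windows carry the table's build. The named genes were all 9 members, the highest and lowest member of each further list, any past 2-fold, and 12 pathway genes in every case, of which 1 is not reported here; genes past 1.5-fold, the other ligand genes, Ccnd2, Cdk6, Krt31, Ptprc and the epidermal and matrix keratins were named after their values were seen. The members and lists were chosen with earlier results of these data known. With 1 array per group there was no test, and precision is limited by having 2 arrays. The averaging of probes and genes was tested on simulated data. Python 3.11.15, R 4.3.3 and limma 3.58.1 (normexp, quantile and loess) were used.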

Additional observations from a re-analysis of the deposited data

How the results depend on the processing

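The count of 0 members past 2-fold held in 15 of the 16 alternatives, which include thresholds of 1.5 and 3. At 3-fold the outcome was fixed in advance, since that count cannot exceed the count at 2-fold. The count was 2 with scaling to 7 spike-in probes, an alternative chosen after seeing the data that adds 0.82 to every log2 ratio. The members' median log2 ratio of -0.08 was 0.016 with median scaling, 0.10 without scaling, -0.019 with quantile normalization, 0.0084 with loess, -0.14 with normexp background correction and 0.73 with spike-in scaling; the median of all genes moved with it, from -0.07 to 0.03, 0.11, -0.03, -0.0031, -0.09 and 0.74. The count of all genes past 2-fold, 420, was 234 with normexp, 1005 with probes of either array, 1718 without a filter on dim probes, 250 with signals over 100 and 2716 with spike-in scaling, and it was 1454 at 1.5-fold and 161 at 3-fold. Of the genes past 2-fold 60.5% were higher, against 71.4% with median scaling, 78.6% without scaling, 70.9% with normexp, 46.4% without a filter, 72.0% with signals over 100 and 99.0% with spike-in scaling. Settings that add a constant shift all genes alike by their construction; for normexp the cause was not tested. Of 140 recomputed log2 ratios and medians 100 moved by less than the technical SD and 40 by more, and of 32 recomputed counts 24 stayed within 1.5 times. Signals under 100 limit 1 measured probe each of Sufu, Ptch1 and Gli2. No paired analysis was possible because each group holds 1 array.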
